A study of Mus musculus with 6 samples.

Results

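The name tumor nuclei in S phase, the part of the cell cycle in which DNA is copied, was given to 771 nuclei. These came from 8149 tumor nuclei and 18865 nuclei in all, and were chosen by their RNA in each of 6 single-nucleus libraries. The selection below takes a fixed share of each library, so the count is not a measured fraction of nuclei in S phase. DNA content was not measured. A nucleus counted as a tumor nucleus with at least 1500 unique molecular identifiers (UMIs, the counted RNA molecules), 100 to 7500 detected genes, under 20% mitochondrial UMIs, at least 0.5% of its UMIs from Hmga2, Mecom and Slit2 together, and fewer than 3 UMIs of the myeloid genes Adgre1, Cadm1, Csf1r, Cd84 and Mrc1. Members were then the top 10% of the tumor nuclei of a library by the summed UMI share of 10 markers (Brip1, Atad2, Mcm3, Mcm5, Mcm6, Rrm2, Cdc6, Dtl, Helb and Pola1). Nuclei at or above the 90th percentile for 5 mitosis genes (Mki67, Top2a, Cenpf, Cenpe and Aspm) were left out, which removed 47 nuclei with high marker shares.

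The tumors grew from TC1 cells, a mouse lung epithelial tumor line, injected under the skin of MCT2 loxP/loxP mice that also carried mCre-Tg, a Cre transgene switched on by tamoxifen. MCT2, encoded by Slc16a7, is a transporter of monocarboxylates such as pyruvate and lactate. At 8 weeks of age, KO mice received tamoxifen for 5 days and control (CO) mice received vehicle, and tumors were collected after 24 days of growth. There were 3 KO and 3 CO libraries of nuclei from frozen whole tumor. The loxP alleles and the Cre transgene belong to the host mice, so KO against CO compares tumors by the mouse they grew in, and the deletion cannot be told apart from the tamoxifen itself. Whether a gated nucleus came from a TC1 cell or from a host cell was not tested. The labels give the tissue as lung although the tumors were subcutaneous. They do not say that replicates came from separate animals, so p-values measure the spread between these samples.

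Cells prepare for DNA copying by loading the MCM helicase onto origins, a step that needs Cdc6, and then fire those origins while DNA polymerases, the sliding clamp and nucleotide-making enzymes work at the forks. E2F transcription factors, released from the retinoblastoma protein by cyclin-dependent kinases, turn on most of these genes at the G1/S boundary. Genes for chromosome separation follow later in the cycle, many of them through a promoter element called the cell cycle genes homology region (CHR).

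The markers that chose the nuclei cover these steps, and the promoters of several held an E2F motif. The motif was searched as TTTCCCGC, TTTCGCGC, TTTGCCGC or TTTGGCGC on both strands of RefSeq windows running from 250 bases before to 50 bases after a gene's start (GRCm38.p6, 300 bases each). A window was given for 9 of the 10 markers and 6 of these 9 held the motif, namely Mcm3, Mcm5, Mcm6, Cdc6, Dtl and Pola1. Of all 32851 windows 2.26% held it, and of the 11584 windows of genes tested below 3.96% did. The stretches around the matches that end before the start are printed 5′ to 3′ on the strand of the gene, because they show how the same letters recur in genes of helicase, loading and polymerase roles. Capitals mark the motif, and where matches on both strands overlap the capitals run over both.
Mcm5 (MCM helicase subunit), chr8:75109336-75109387, plus strand: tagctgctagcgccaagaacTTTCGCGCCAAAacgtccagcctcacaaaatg
Mcm6 (MCM helicase subunit), chr1:128359784-128359835, minus strand: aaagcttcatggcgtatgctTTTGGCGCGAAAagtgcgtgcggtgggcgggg
Mcm6, nearer match, chr1:128359725-128359772, minus strand: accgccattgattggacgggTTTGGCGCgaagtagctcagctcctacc
Cdc6 (helicase loading), chr11:98907993-98908040, plus strand: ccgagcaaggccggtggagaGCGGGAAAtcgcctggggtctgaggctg
Dtl (substrate receptor of a ubiquitin ligase active at forks), chr1:191575545-191575572, minus strand: atcagaaagcgtgacgtcagTTTGGCGC
Pola1 (catalytic subunit of DNA polymerase alpha), chrX:93632266-93632313, minus strand: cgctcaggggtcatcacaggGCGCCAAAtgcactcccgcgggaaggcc
In these stretches the motif ended 141 bases before the start for Mcm5, 98 and 39 for Mcm6, 130 for Cdc6, 0 for Dtl and 130 for Pola1. In Mcm3 both matches lay after the start. The start is that of the RefSeq window. In the GENCODE vM21 annotation Cdc6 begins at 98907801, so its stretch lies inside the gene there. A match is a description of the letters and not a site shown to be bound.

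The libraries held 13252572 to 22057084 UMIs each. Tumor nuclei numbered 1656, 1394 and 723 in CO replicates 1, 2 and 3 and 2374, 1284 and 718 in KO replicates 1, 2 and 3, and members numbered 156, 133 and 68 in CO and 224, 121 and 69 in KO. Library pairs shared 19 to 25 barcodes and no member barcode was shared. KO replicate 1 stood apart from the other KO libraries. Over 9170 genes, its summed member profile correlated most with CO replicate 2 (r = 0.953, log2 CPM) and least with KO replicate 2 (r = 0.843), whereas KO replicates 2 and 3 correlated with each other at r = 0.951. CO replicate 3 stood somewhat apart from the other CO libraries too. It correlated most with CO replicate 2 (r = 0.919), then with KO replicate 3 (r = 0.908) and CO replicate 1 (r = 0.903). The median mitochondrial share of members was 7.34% to 8.29% in CO replicates 1 and 2 and KO replicate 1, and 3.45% to 4.20% in the other 3 libraries. In nuclei outside the tumor gate Slc16a7 stood at 38.3, 49.9 and 73.0 CPM (UMIs of a gene per 1000000 UMIs) in CO and 57.2, 56.4 and 85.5 in KO. These are tags of the 3′ end, and the deleted part of the gene is not given in the sources used here, so they check neither group. Members held 3 UMIs of Slc16a7 in CO and 3 in KO. Of 12 genes typical of epithelium, 7 had no UMI in any member, Epcam, Krt18 and Krt7 among them, and the list summed to 1.12 to 13.9 CPM over libraries. The fibroblast list summed to 907 to 1766 CPM in members and 1083 to 2690 CPM in other tumor nuclei. The epithelial markers thus went against the label of the line, and tumor nuclei here means nuclei that pass the gate of Hmga2, Mecom and Slit2.

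The selection set the marker levels, which are described here without a test. The cut lay at 0.253%, 0.250% and 0.261% of UMIs in CO and at 0.254%, 0.343% and 0.296% in KO. In CO replicate 1 the lowest member had 0.2530% and the highest nucleus below the cut 0.2527%, so members and the next nuclei form 1 continuous range and not separate clusters. Pooled over members, the markers took 0.307%, 0.305% and 0.336% of UMIs in CO and 0.309%, 0.390% and 0.350% in KO, against 0.119% to 0.175% in the other tumor nuclei. Pola1 supplied 39.9% and Atad2, a chromatin-bound ATPase, 26.5% of the marker UMIs of members on average over libraries. Leaving Pola1 out of the markers kept 63.0% of the members, leaving Atad2 out kept 75.4%, and leaving out any other marker kept 86.4% to 95.5%. At least 3 different markers were detected in 756 of the 771 members. Among the other tumor nuclei of a library, only 2.77% to 10.5% had no marker UMI.

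**Figure D1:**
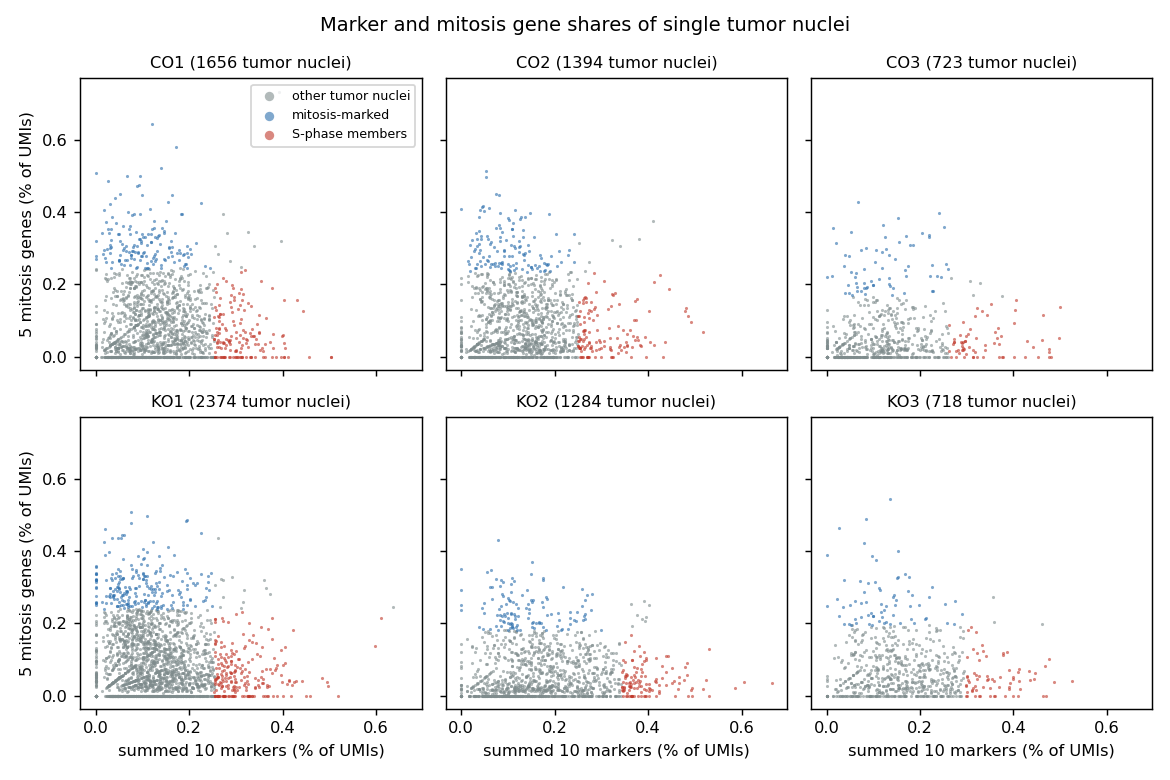
UMI share of the 10 markers (horizontal axis, %) against that of the 5 mitosis genes (vertical axis, %) in each tumor nucleus of the 6 libraries. Members (red) lie to the right of the marker cut of their library, 0.250% to 0.343%, in 1 continuous cloud with the other tumor nuclei (grey), and the 771 mitosis-marked nuclei (blue) lie above the mitosis cut.

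The marker excess was larger in the counts that chose the nuclei than in counts that did not. When the UMIs of each nucleus were split at random and members were chosen on 1 part, the markers were 2.28 to 3.06 times as high in chosen as in other nuclei in that part and 1.70 to 2.18 times as high in the part that was not used. In the unused part the ratio was largest for Cdc6 (median 2.35 over 6 libraries), Dtl (2.13) and Pola1 (1.95) and smallest for Mcm3 (1.40). For Rrm2, a subunit of the enzyme that makes deoxynucleotides, it was below 1 in CO replicate 3 (0.676). Choosing on 1 part found 59.8% to 70.6% of the members again.

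Members had a median of 3785 to 7674 UMIs per library and the other tumor nuclei 4338 to 8019, lower in members in 5 of the 6 libraries. The mitochondrial share of UMIs was lower in members in 6 of 6 libraries, with a mean of medians of 5.82% ± 2.22 (SD, n = 6) against 7.23% ± 2.36 (exact two-sided sign-flip test, p = 0.03125, the smallest that 6 libraries can give). Its part in the results below was not tested.

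Replication genes outside the selection rule were higher in members than in the other tumor nuclei. For this comparison, counts were summed per library over members and over other tumor nuclei and fitted with edgeR's quasi-likelihood test with library as a block. The 23 genes that the rule uses were not counted. A gene was called at a log2 fold change of at least 0.58 in size and a Benjamini-Hochberg adjusted p of at most 0.05. Of 11282 genes 553 were called (4.9%), with 305 higher in members (2.7%) and 248 lower (2.2%). The median log2 fold change of all genes was -0.03. As a plain sum, 59 licensing and fork genes outside the rule took 0.645% ± 0.0349 of UMIs in members (SD, n = 6), 0.439% ± 0.0301 in the other tumor nuclei and 0.392% ± 0.0170 in mitosis-marked nuclei. That sum was higher in members in 6 of 6 libraries. Single nuclei overlapped, since only 40.2% to 66.2% of the members of a library lay above the 90th percentile of its other tumor nuclei.

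**Figure D2:**
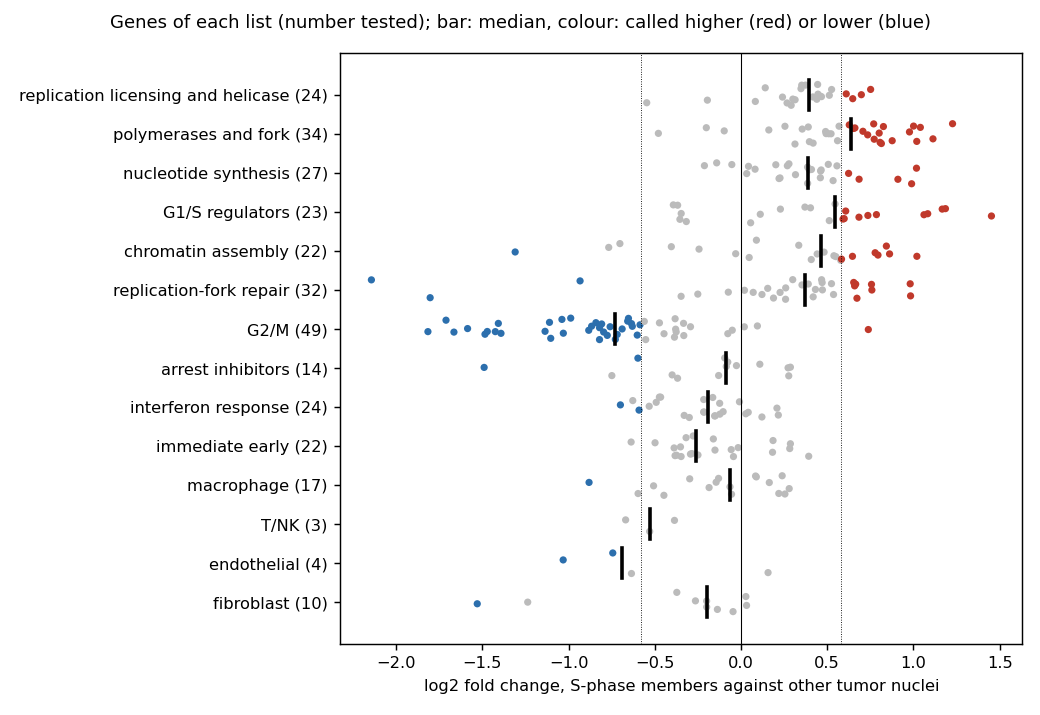
Log2 fold change of members against other tumor nuclei (horizontal axis) for every tested gene of 14 lists, with the median as a bar and the size limit of 0.58 dotted. The median lies at 0.64 for polymerases and fork and at -0.73 for G2/M, whose genes the selection rule itself pushes down.

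Among 34 polymerase and fork genes 18 were higher and none was lower, with a median log2 fold change of 0.64. Prim1, the catalytic subunit of the primase that starts each new strand, stood at 385, 338 and 421 CPM in members of CO replicates 1, 2 and 3 and at 346, 244 and 270 CPM in those of KO. In the other tumor nuclei Prim1 stood at 189, 200 and 150 CPM in CO and 191, 130 and 139 CPM in KO, so the ranges did not overlap (log2 fold change 0.98, SE 0.06, edgeR adjusted p = 1.5e-15). Its partner Prim2 rose by 0.77 (SE 0.05) and Rfc1, the large subunit of the clamp loader, by 0.83 (SE 0.07). Dna2, a nuclease that trims Okazaki fragments, went from 119 ± 7.13 to 261 ± 53.9 CPM (SD, n = 6). Dscc1, part of an alternative clamp loader that helps to join sister chromatids, went from 15.0 ± 1.39 to 34.7 ± 3.36 CPM. Pcna, the sliding clamp itself, stood at 281, 224 and 230 CPM in CO members and 216, 149 and 111 CPM in KO members. The matching values in other tumor nuclei were 160, 138 and 114 CPM in CO and 129, 87.2 and 110 CPM in KO, so in KO replicate 3 Pcna hardly differed between the states although it passed over all 6 libraries (log2 fold change 0.71, adjusted p = 4.2e-10). Tipin, a fork protection factor, had a log2 fold change of 0.57 and lay just under the size limit.

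Of 24 tested genes of origin licensing and the helicase, a list without the markers Mcm3, Mcm5, Mcm6 and Cdc6, 4 were higher and none was lower, with a median of 0.39 and a positive sign in 22. The 4 were Mcm4 and Mcm8 of the MCM family, Mcm10 and Cdc45, which act when the helicase is switched on, with log2 fold changes of 0.75, 0.65, 0.61 and 0.70. They are named because they are the ones that passed, and Mcm8 fell under the size limit (0.56) without CO replicate 1. The genes of the list with the highest levels lay under the size limit in each case, with log2 fold changes of 0.44 for Topbp1, an activator of origin firing, 0.44 for Mcmbp, 0.27 for Orc2 and 0.53 for Orc6, subunits of the origin recognition complex. In the unused part of the split counts the licensing list again had 4 genes higher and the fork list 17.

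Nucleotide synthesis had 5 of 27 genes higher and none lower (median 0.39). Tyms, which makes thymidylate, stood at 258, 311 and 296 CPM in CO members and 271, 329 and 253 CPM in KO members. In the other tumor nuclei Tyms lay between 138 and 164 CPM, below every member value (log2 fold change 0.91, SE 0.06, adjusted p = 1.1e-15). Dck, a salvage kinase, rose by 0.99 (SE 0.10), Dut, which keeps uracil out of DNA, by 0.68 and Mthfd1l, a mitochondrial folate enzyme, by 0.62. Dtymk, the next kinase after Tyms, had 0.46 and was not called. Without CO replicate 3 Mthfd1l lay under the size limit (0.55).

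The regulators of the G1/S boundary held the gene with the smallest p of all. Ccne2 encodes cyclin E2, a partner of Cdk2 at S-phase entry, and stood at 265, 231 and 246 CPM in CO members and 194, 247 and 208 CPM in KO members. In the other tumor nuclei it stood at 90.3, 92.6 and 72.4 CPM in CO and 84.6, 80.3 and 84.2 CPM in KO, so every member value lay above every other value (log2 fold change 1.45, SE 0.07, adjusted p = 1.1e-19). Ccne2 overlaps Ints8 on the opposite strand (chromosome 4, 11191351 to 11204779), and reads shared by the pair could not be separated here because the use of strand in counting is not stated. The same holds for Parpbp, Mlf1, Fanca, Orc2, Orc6, Rb1, Cdc25c and Helb above and below, and for Siae, Nxpe4 and Col18a1, each of which overlaps another counted gene. Of 23 regulators 11 were higher and none was lower (median 0.55). E2f7, a repressor of the E2F family that is itself an E2F target, went from 131 ± 30.0 to 295 ± 78.1 CPM and Mybl2, which carries the program on towards mitosis, from 31.0 ± 1.00 to 69.5 ± 6.81 CPM. E2f1 rose by 0.68, Ccne1 by 1.06 and Tfdp1, the dimer partner of E2F proteins, by 0.61. Tfdp1 lay under the size limit without CO replicate 3 (0.565), without KO replicate 2 (0.579) or without mitosis-marked nuclei (0.577). Rb1, the retinoblastoma protein, had 0.55 and was just under the size limit. Cdk6, a kinase of the preceding phase, had 0.06 (adjusted p = 0.61). The E2f7 window also held the E2F motif, 190 bases before the start.
E2f7, chr10:110745221-110745268, plus strand: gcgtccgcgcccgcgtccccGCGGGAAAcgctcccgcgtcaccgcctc
Of the 324 windows of genes called higher, 9.57% held the motif, against 3.96% of the windows of all tested genes and 2.51% of the 239 windows of genes called lower. Of the 155 windows of the 6 replication and G1/S lists 23.9% held it. The share for genes called lower is a description, since they include G2/M genes that the selection rule pushes down. Ccne2, Dscc1 and Atad2 had no window in the table.

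**Figure D3:**
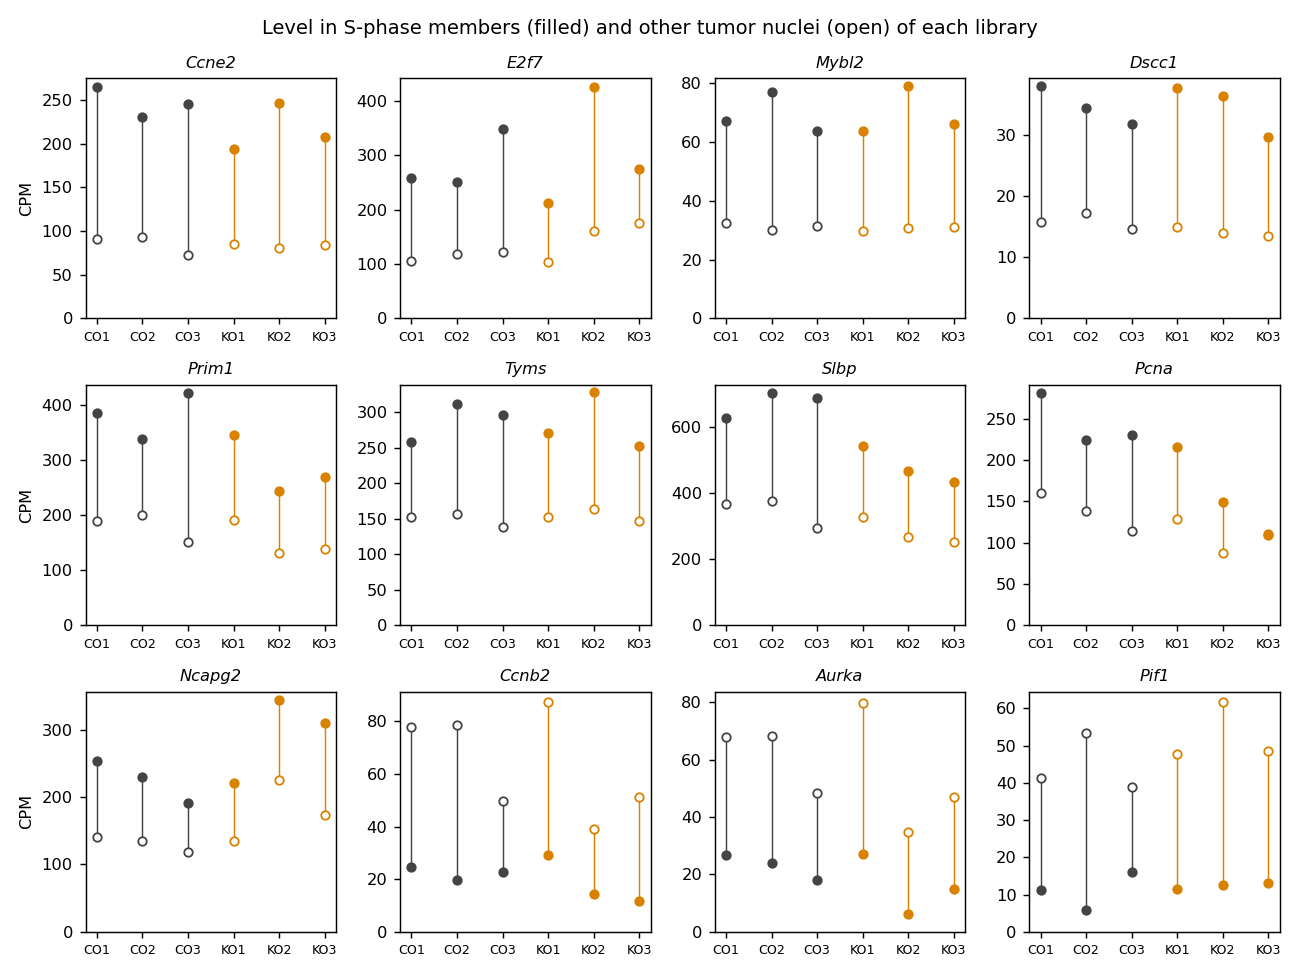
CPM (vertical axes, from 0) of 12 genes in members (filled) and other tumor nuclei (open) of each library, CO in grey and KO in orange. Filled points lie above open ones for Ccne2, E2f7, Mybl2, Dscc1, Prim1, Tyms, Slbp and Ncapg2 in 6 of 6 libraries and below them for Ccnb2, Aurka and Pif1, and the 2 points of Pcna nearly coincide in KO replicate 3.

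Chromatin assembly had 7 of 22 genes higher and 1 lower (median 0.46). Slbp, which binds the end of histone messengers, stood at 628, 704 and 687 CPM in CO members and 544, 467 and 435 CPM in KO members, against 251 to 377 CPM in the other tumor nuclei (log2 fold change 0.86, SE 0.05, adjusted p = 3.8e-16). Mms22l, which protects stalled forks, rose by 0.84, the remodeler Hells by 0.78 and Ezh2, the methylase of histone H3, by 0.58. Ezh2 lay at the size limit and missed it without CO replicate 1, 2 or 3 or KO replicate 3 (0.567 to 0.5798). The gene that fell was Hist1h1e, a linker histone, from 6.47 ± 3.50 to 2.49 ± 2.64 CPM (adjusted p = 0.011). Its adjusted p was 0.056 with CO replicate 1 left out and 0.109 with KO replicate 1 left out. Taking the mitosis-marked nuclei out of the comparison gave 0.070. Such histone messengers lack a poly(A) tail, which the capture uses, and the level given is that of the captured molecules only.

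Fork repair had 8 of 32 genes higher and 3 lower (median 0.37). Fanca, of the crosslink repair complex, rose by 0.76 (SE 0.08). Rad18, a ubiquitin ligase at stalled forks, had 0.12 and was not called. The 3 that were lower, Pif1, Parpbp and Eme1, were also much higher in mitosis-marked nuclei than in members (for Pif1 162 against 11.6 CPM), so the selection rule pushes them down like the G2/M genes below and they are given as a description. Pif1, a helicase, showed the steepest fall among the named genes, at 11.2, 5.74 and 15.9 CPM in CO members and 11.5, 12.5 and 13.2 CPM in KO members. In the other tumor nuclei Pif1 stood at 41.3, 53.3 and 38.8 CPM in CO and 47.9, 61.6 and 48.6 CPM in KO (log2 fold change -2.14). Parpbp, an inhibitor of homologous recombination, had -1.80 and Eme1, part of a nuclease that cuts joined DNA, -0.93. After the mitosis-marked nuclei had been taken out of the comparison, the values were -1.67 for Pif1, -1.42 for Parpbp and -0.76 for Eme1.

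The G2/M list follows from the rule, since nuclei with much mitosis RNA were kept out of the members but not out of the comparison, and its values are given with no reading. Of 49 genes 33 were lower and 1 was higher (median -0.73). After the mitosis-marked nuclei had also been taken out of the comparison, 16 were lower and 1 was higher (median -0.45). Among genes at 20 CPM or more, the 8 of the 10 largest falls other than Pif1 and Parpbp were Cdc25c, Cenpa, Hmmr, Ccnb2, Aurka, Cep55, Gas2l3 and Kif14, with log2 fold changes between -1.82 and -1.48. The 1 gene that rose was Ncapg2, a subunit of condensin II, the chromosome compaction complex that resides in the nucleus before mitosis. It stood at 253, 230 and 191 CPM in CO members and 221, 345 and 309 CPM in KO members, against 141, 135 and 119 CPM and 135, 226 and 173 CPM in the other tumor nuclei (log2 fold change 0.74, SE 0.06, adjusted p = 2.7e-13). Of the abundant genes of the list, Smc4, of both condensins, had -0.08, Ckap2 -0.45 and Ccnf 0.09, none of them called.

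The CHR, searched as TTTGAA on both strands, was held by 79.1% of the 43 windows of the G2/M list, by 27.6% of windows of genes called lower, by 10.2% of those called higher and by 11.9% of those of all tested genes. The G2/M windows held the E2F motif in 14.0%, and the windows of the 6 replication and G1/S lists held the CHR in 17.4%. Neither motif was thus confined to 1 of these groups. No marker window held the CHR. The genes called lower include 33 of the G2/M list, which the selection rule pushes down, so their share is a description. Stretches for genes among the 10 largest falls whose match ends before the start are shown with the CHR in capitals, to set beside the E2F stretches above. The start is again that of RefSeq. In GENCODE vM21 Kif14 begins at 136466343, so its stretch lies inside the gene there, and the Cep55 stretch spans the start at 38055011.
Ccnb2 (cyclin B2), chr9:70421696-70421741, minus strand: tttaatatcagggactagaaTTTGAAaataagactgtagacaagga
Cep55 (abscission), chr19:38054988-38055033, plus strand: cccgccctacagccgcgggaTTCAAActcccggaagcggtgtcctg
Kif14 (kinesin of cytokinesis), chr1:136467600-136467645, plus strand: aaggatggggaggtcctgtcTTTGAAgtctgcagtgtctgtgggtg
Parpbp, chr10:88146942-88146970, minus strand: tcccaggtcgtgccgcgagaTTTGAAagg

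Among genes at 20 CPM or more in members or in other tumor nuclei, most of the remaining 10 largest rises are not known for DNA replication. Fam81a, Cfap77, Mlf1, Dscc1, Lhx2 and Spdya met that level through the members alone, so the order of the rises is a description. Fam81a went from 7.78 ± 1.29 to 27.3 ± 7.66 CPM (SD, n = 6), the largest rise of the named genes (log2 fold change 1.81, SE 0.18, adjusted p = 1.2e-10). Cfap77, a protein of ciliary microtubules, rose by 1.43, Mlf1 by 1.28, the transcription factor Lhx2 by 1.21 and Gm4969 by 1.20. Spdya, an activator of Cdk2 that is not a cyclin, rose by 1.15 and stood at 24.6, 29.9 and 18.2 CPM in CO members and 35.6, 60.5 and 71.1 CPM in KO members.

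Of 14 arrest inhibitors none was higher and 2, Ccng2 (log2 fold change -1.49) and Cdkn2d (-0.60), were lower. Without mitosis-marked nuclei in the comparison Ccng2 had -1.32. Against mitosis-marked nuclei 4 of 12 arrest inhibitors were lower in members and none was higher. How far the selection rule sets these falls was not tested. Cdkn2a, Mdm2, Btg2 and Cdkn1a, the most abundant of that list, had 0.11, 0.28, 0.29 and -0.03 and none was called. Of 24 interferon response genes 2, Parp14 and Rsad2, were lower by 0.59 and 0.70, and of 22 immediate early genes none was called. Among markers of other cells, Dock2 of 17 macrophage genes, Pecam1 and Tek of 4 endothelial genes and Postn of 10 fibroblast genes were lower in members, at 2.88 to 8.83 CPM against 6.93 to 17.7 CPM. The median of the 4 endothelial genes was -0.69, and 0 of 3 T and NK cell genes was called. Several of these calls were lost when 1 library was left out, for Pecam1 and Tek with any of several libraries. Cdkn2d was -0.44 and Parp14 -0.50 without CO replicate 2, Cdkn2d was -0.38 without mitosis-marked nuclei in the comparison, and Rsad2 was -0.52 without KO replicate 2, all under the size limit. The edgeR adjusted p of Pecam1 was 0.052 to 0.228 without CO replicate 1, CO replicate 3, KO replicate 2 or KO replicate 3, and that of Tek was 0.0508 to 0.0944 without any 1 of the CO libraries or KO replicate 2. Summed macrophage genes ranged from 315 to 708 CPM over libraries in members and from 350 to 704 CPM in other tumor nuclei, with Itgam at 0 in both, and summed endothelial genes from 182 to 305 CPM and from 201 to 319 CPM. Their part in the comparison was not tested.

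Against mitosis-marked nuclei, another cycling state of these tumors, more genes were called than against the other tumor nuclei. The counts are not a like comparison, since the other tumor nuclei are a mixed set that also holds nuclei just below the marker cut. The comparison set held the top 10% of each library by the 5 mitosis genes that lay below the marker cut, 771 nuclei in all, with a median of 4975 to 10734 UMIs. Of 9181 genes 1141 were called (12.4%), with 603 higher in members (6.57%) and 538 lower (5.86%). Fork genes were higher in 23 of 34 and lower in 2 (median 0.80), licensing genes higher in 8 of 23 and lower in 1, nucleotide synthesis higher in 9 of 25 and lower in none, and G1/S regulators higher in 12 of 22 and lower in none. Fork repair split evenly, with 6 of 32 genes higher and 5 lower. Of 49 G2/M genes 48 were lower (median -2.03), which the choice of both sets largely fixes. The mitosis-marked nuclei were also held below the marker cut, so genes that follow the markers are pushed apart by that choice. The counts of the replication and G1/S lists in this comparison are therefore a description too.

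Whether host MCT2 altered the S-phase nuclei was asked in 2 ways, by the marker level of all tumor nuclei and by the genes of the members. A fixed share of each library was chosen, so the number of members cannot differ between groups. The markers took 0.138%, 0.141% and 0.136% of the UMIs of all tumor nuclei in CO and 0.135%, 0.194% and 0.176% in KO. KO replicates 2 and 3 lay above every CO library and KO replicate 1 lay below them, and the means of 0.138% ± 0.00274 and 0.168% ± 0.0305 (SD, n = 3) did not differ beyond the spread (exact two-sided permutation test, p = 0.4; 3 against 3 cannot go below 0.1). Pola1 alone made up most of that gap, at 0.0437% in CO and 0.0672% in KO (exact p = 0.3). KO replicates 2 and 3 also had the highest median UMIs of tumor nuclei, 7968 and 7715, against 4295 to 5924 in the other libraries. With CO replicate 3 they had the low mitochondrial shares given above, and Pola1 is a long gene of 327389 bases. The part of these library differences and of gene length in the gap was not tested. The other 9 markers took 0.0943% ± 0.00814 in CO and 0.101% ± 0.00715 in KO (exact p = 0.4, an alternative added after the data were seen). The 59 replication genes outside the rule took 0.463% ± 0.0350 in CO and 0.446% ± 0.0246 in KO (exact p = 0.6). In members they took 0.667% ± 0.0249 in CO and 0.623% ± 0.0316 in KO (exact p = 0.2).

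After thinning each tumor nucleus to 1500 UMIs, 54.2%, 54.0% and 49.2% of tumor nuclei in CO and 54.0%, 64.6% and 64.9% in KO had at least 2 marker UMIs (52.5% ± 2.80 against 61.2% ± 6.17, n = 3, exact p = 0.2). At least 1 marker UMI was found in 79.0%, 77.3% and 72.6% in CO and 81.5%, 84.6% and 85.8% in KO, so that every KO library lay above every CO library (exact p = 0.1, the smallest possible). Without thinning, the shares with at least 2 were 88.8%, 88.8% and 80.4% in CO and 86.4%, 93.6% and 92.3% in KO. Macrophage-marked nuclei, used as a background, gave 25.3% to 41.0% at the same depth, below every tumor value. The medians before thinning were 4295 to 7968 UMIs in tumor nuclei and 1820 to 2538 in macrophage-marked nuclei. With a single cut for the whole series, at 0.273% of UMIs, 6.82%, 5.88% and 8.71% of tumor nuclei in CO and 6.91%, 19.7% and 13.9% in KO would have been members (exact p = 0.2).

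**Figure D4:**
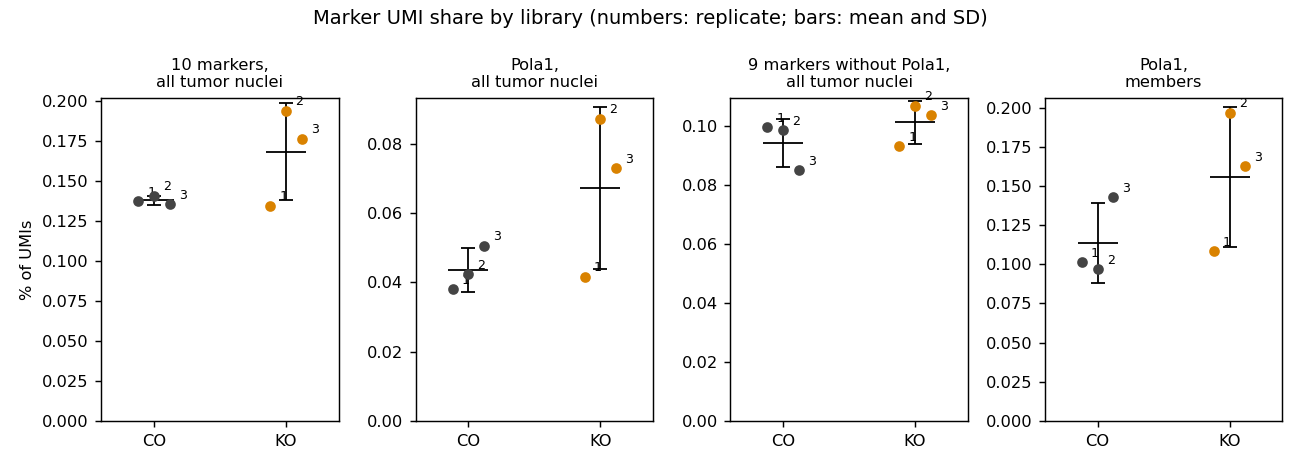
Share of UMIs (vertical axes, %, from 0) of the 10 markers, of Pola1 and of the other 9 markers in all tumor nuclei, and of Pola1 in members, for each CO and KO library with the mean and SD of 3. KO replicates 2 and 3 lie above every CO library for Pola1, and KO replicate 1 lies among them.

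No gene was called between KO and CO in the members by edgeR's quasi-likelihood test. Of 9170 genes tested 0 were called (0%), 580 had an unadjusted p under 0.05, and the smallest adjusted p was 0.286. DESeq2 called 2, Siae and Crabp1. The biological coefficient of variation between libraries was 26.0%, and in simulated counts of this comparison the test found 22% of 2-fold and 87% of 4-fold changes, so a change of 2-fold would mostly have been missed. The groups did not overlap for 1124 genes (12.3%). Random orders of 3 against 3 libraries separate in a share of 0.1, so this count is near that share. The 3 genes with the smallest p in each direction were all among the 1124. Siae, a sialic acid esterase, stood at 46.6, 30.8 and 26.6 CPM in CO members and 106, 169 and 132 CPM in KO members (log2 difference 1.94, SE 0.29, adjusted p = 0.286). Crabp1, a retinoic acid binding protein, stood at 111, 145 and 109 CPM in CO members and 47.6, 39.3 and 39.7 CPM in KO members (log2 difference -1.53, SE 0.23, adjusted p = 0.286). Nxpe4, Galnt13, Col18a1 and Sac3d1 had log2 differences of 1.14, 1.50, -0.95 and -1.96, each with an adjusted p of 0.693. Siae, Nxpe4 and Galnt13 span 93958, 238003 and 681993 bases, and Crabp1, Col18a1 and Sac3d1 span 8363, 114371 and 2651 bases. The part of gene length was not tested. Pola1 stood at 999, 945 and 1371 CPM in CO members and 1082, 2093 and 1651 CPM in KO members, which is a description since the markers chose the members. No list had a called gene. All 11 tested arrest inhibitors had a negative log2 difference (median -0.33) and 13 of 18 immediate early genes did (median -0.43), against a median of -0.00070 over all genes. Among the replication lists, nucleotide synthesis was negative in 22 of 26 genes (median -0.10) and licensing in 16 of 23 (median -0.14). Polymerases and fork were negative in 18 of 34 (median -0.07), and fork repair was positive in 23 of 31 (median 0.22).

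**Figure D5:**
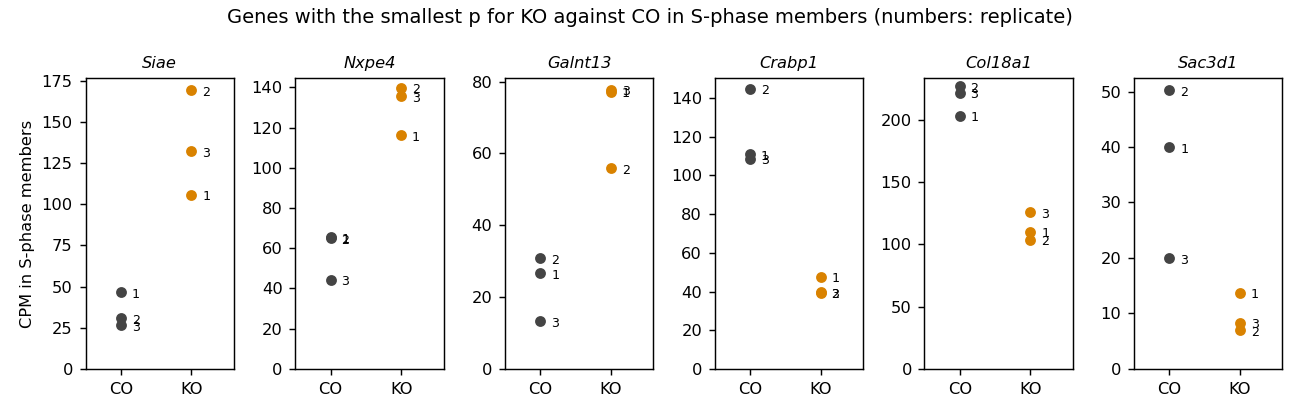
CPM in members (vertical axes, from 0) of the 6 genes with the smallest p for KO against CO, by library. The KO libraries, replicate 1 included, lie above every CO library for Siae, Nxpe4 and Galnt13 and below them for Crabp1, Col18a1 and Sac3d1.

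The count rests on KO replicate 1. Without that library, 607 of 9292 genes were higher (6.53%) and 1080 lower (11.6%) in KO, 1687 in all (18.2%), whereas without CO replicate 3 the count was 0 (627 with an unadjusted p under 0.05). Of the 1674 genes called without KO replicate 1 that were tested with every library, it lay nearer to the CO mean than to the mean of the other KO libraries in 1571. None of them was called with KO replicate 1 in the fit, so that position follows in part from the choice of genes. The fork list then had 3 genes higher and 6 lower of 34, fork repair 6 higher and 0 lower of 31, and arrest inhibitors 0 higher and 5 lower of 11. Macrophage genes, markers of other cells, had 3 of 9 lower in the same fit (median -1.05), immediate early genes 4 of 18 (median -0.61) and fibroblast genes 0 of 8 (median -0.54), and their part in the count was not tested. By the correlations of member profiles given above, the library labelled KO replicate 1 went against its group. It lay with KO for the 6 genes above, which were picked with it in the group. Whether its label is right was not tested.

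The difference between KO and CO was also compared between members and the other tumor nuclei, as an interaction. Of 11795 genes 0 were called (0%), with 557 below an unadjusted p of 0.05, and by DESeq2 the count was also 0. In simulated counts of this comparison the test found 59% of 2-fold and 87% of 4-fold differences. Other settings called up to 13 genes. Of these, named after their values were seen, Gas1 was called in 4 settings (log2 difference of differences 0.82 to 1.18), Pcdh9 in 4 (0.81 to 1.17) and Gpm6b in 3 (-1.43 to -1.08).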

How the data were processed

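Nuclei from frozen whole tumors were profiled by droplet 3′ RNA sequencing in 6 libraries. The authors deposited 1 matrix of UMI counts per library, made with Cell Ranger 3.0.2 per the labels (the matrix headers name 3.1.0) on GRCm38. The values are whole counts with no normalization. The methods name a removal of ambient RNA, but whole numbers were deposited, so they were taken as uncorrected and free RNA was left in. Some samples had extra washes, and which ones is not given in the sources used here. The total counts per library bound the counting precision, and intervals cover counting error only.

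Members were chosen with the rule given above, and the members and gene lists were chosen with earlier results of these data known. Raw counts were summed per library and state. Genes kept by filterByExpr were tested with edgeR 4.0.16 (TMM, quasi-likelihood, library as a block within libraries, R 4.3.3), and p-values were adjusted over all tested genes by the Benjamini-Hochberg method. The named genes were the 10 largest called changes in each direction at 20 CPM or more and of 1 direction in 6 of 6 libraries, the 4 most abundant genes of each list, and the 3 smallest p in each direction for KO against CO, and fold changes are given for part of them and for called list members. Doublets were scored with Scrublet in scanpy 1.11.5 and kept. Removing the highest scores, at 0.8% of nuclei per 1000 nuclei, was an alternative. DESeq2 1.42.0, RLE size factors, no filter on low counts, thinning, other cuts, a random split of UMIs, no library block and leaving out each library were the others. Tested on simulated counts for members against other tumor nuclei, 87% of 2-fold and 97% of 4-fold changes were recovered. Gene positions came from GENCODE vM21 (22513 of 22623 features matched) and promoter windows from RefSeq (9019 of 11280 tested symbols matched). In 8979 of 11528 windows checked (77.9%), bases 251 to 280 lay in the first 400 bases of a GENCODE transcript of the gene. Some genes are not reported here.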

Additional observations from a re-analysis of the deposited data

Results flagged for a closer look

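In 10 of 68 genes with a printed fold change, 1 library lay far from the other 5 in the log2 ratio of members to other tumor nuclei. Chance gives such a library in about 1 in 20 groups, and genes of 1 library are not independent. CO replicate 3, the library with the fewest members, was the one in 5 of the 10. There the ratio was 1.48 for Prim1 (0.76 to 1.02 in the others), 1.31 for Rfc1 (0.62 to 0.87), 1.22 for Slbp (0.72 to 0.90), 0.74 for Topbp1 (0.36 to 0.46) and -3.29 for Tek (-1.25 to -0.49), which had no UMI in those members. In KO replicate 3 the ratio was 0.015 for Pcna (0.69 to 1.00), -0.20 for Ckap2 (-0.53 to -0.42) and 1.65 for Spdya (0.82 to 1.12). In KO replicate 2 it was -2.30 for Aurka (-1.59 to -1.31) and 0.30 for Rb1 (0.56 to 0.64).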

How the results depend on the processing

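Against other tumor nuclei, 553 genes were called in all. The count was 345 after thinning to 1500 UMIs, 336 when nuclei were chosen on 1 part of the UMIs and counted in the other, and 191 without the library block, and it ran from 507 to 560 when 1 library was left out. Genes called under these settings and also with the settings of the report kept their direction. With no filter on low counts, 632 were called, 39.1% of them higher (55.2% in the report), and the median of all genes was -0.14. Against mitosis-marked nuclei, 1141 genes were called, 495 after thinning, 750 with the split and 1092 to 1151 with 1 library left out. For KO against CO in members, DESeq2 and no filter on low counts each called 2, and leaving out 1 library gave 0 to 1687, the highest without KO replicate 1. For the interaction, 7 genes were called with no filter on low counts, 1 after thinning, 13 with the top 5% and 1 with the top 20%, and 0 to 3 with 1 library left out (CO replicate 2 left out gave 3, and either KO replicate 1 or KO replicate 3 gave 1). The KO minus CO difference in marker share, 0.0304 percentage points, ran from 0.0176 to 0.0472 with 1 library left out, and that of nuclei with at least 2 marker UMIs, 8.70 points, from 6.83 to 12.3. Small fold changes turned sign for Ccnf (-0.021 with the split), Cdk6 (-0.00742 with no filter, and -0.030 to 0.099 over the libraries left out, negative for CO replicate 2), Cdkn1a (0.035 with the top 20%, and -0.083 to 0.018 over the libraries left out, positive for CO replicate 1 and KO replicate 1), Dock2 (0.11 with the split) and Smc4 (0.046 after thinning, 0.071 without mitosis-marked nuclei). The causes were not tested.

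Same-numbered CO and KO libraries deviated together with r of 0.398, -0.179 and 0.247, so the numbers were not taken to pair the samples. With the replicate number as a block, 0 genes were called for KO against CO in members (960 with an unadjusted p under 0.05) and 0 for the interaction (75), and the differences in marker share and in nuclei with at least 2 marker UMIs stayed at 0.0304 and 8.70 points (exact p = 0.5 for each).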
